A study of Mus musculus with 8 samples.

Results

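The cytosolic ribosomal protein genes were followed in single hematopoietic stem cells (HSCs) from mice labelled wild type (WT) or Med23-/- (KO), and their UMIs took a smaller share of the cell's transcripts in the pool labelled KO. Members were the genes of the expression table whose symbol starts with Rps or Rpl followed by a number or by the letter a or p, without the ribosomal S6 kinases. This rule took 85 of 10720 genes. Of these, 73 encode proteins of the cytosolic ribosome, 30 of its small (40S) subunit, 40 of its large (60S) subunit and 3 of the stalk of the large subunit, and they are called the 80S list here. The other 12 were 7 paralogs, 4 symbols of pseudogenes and Rps19bp1, which encodes a protein that binds Rps19 and is not part of the ribosome. Rps27, Rpl26, Rpl30 and Rpl34 were not analysed here.

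All cells came from the bone marrow of adult C57BL/6 mice with loxP-flanked Med23 alleles, 4 libraries per genotype. Med23 encodes a subunit of Mediator, the complex that links transcription factors to RNA polymerase II. KO mice carried the Mx1-cre transgene, whose interferon-responsive promoter is switched on by poly(I:C) in blood cells and in other tissues, and WT mice were littermates without it. Whether the WT mice of the single-cell libraries also received poly(I:C) is not given in the sources used here. Cells were sorted as LSK CD150+CD34-CD48-, picked by hand and primed at the poly(A) tail, and each transcript was tagged with a unique molecular identifier (UMI), so that 1 molecule gives 1 count.

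The table names the genotype of a cell but not its library, so each genotype was 1 pooled sample. No difference below has a replicate check and no p-value was computed. After the filter of 2000 genes and 20000 UMIs, 259 cells labelled WT held 21475782 UMIs and 234 cells labelled KO held 16180546 UMIs, with 20027 to 496293 UMIs in a cell. Intervals are exact 95% intervals and cover counting error only. Med23 itself was read 122 times in WT and 117 times in KO, or 5.68 and 7.23 UMIs per 1000000 UMIs of the pool (CPM), a ratio of 1.27 with an interval of 0.979 to 1.65. With so few UMIs the direction was not firm: the log2 ratio of 0.35 was -0.05 without the cell with the most Med23 UMIs and -0.40 in cells with at least 3000 genes and 30000 UMIs. A loss of the targeted transcript was thus not seen under the KO label, and where these 3' UMIs lie relative to the deleted part is not given, so the groups are called the pools labelled WT and KO. The 15 HSC identity genes were all in the table and summed to 1894 CPM (WT) and 1925 CPM (KO). Singly they differed more: 8 were lower and 7 higher in KO, with log2 ratios from -2.26 (Slamf1) to 1.14 (Mecom). A total of 70 WT cells and 2 KO cells held more than 1000 CPM of a list of 28 measured oocyte transcripts, so the main results are also given without those cells.

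A ribosome is built from ribosomal RNA and about equal numbers of each ribosomal protein, and free ribosomal proteins are degraded, so cells keep their genes in step. Their mRNAs are short, stable and very abundant, and most begin with a run of pyrimidines, the 5' terminal oligopyrimidine (TOP) tract, through which the mTOR kinase and the protein Larp1 control their translation. HSCs make protein more slowly than the progenitors they give rise to, and several inherited anaemias arise from loss of 1 copy of a ribosomal protein gene.

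The question was first asked of the whole family: how much of the messenger RNA of a stem cell encodes ribosomal proteins, and does that amount differ between the pools? The 85 genes took 22.8% of all UMIs in the pool labelled WT (22.76% to 22.80%) and 20.7% in the pool labelled KO (20.71% to 20.75%), a log2 ratio of -0.14. Single cells labelled WT ranged from 10.6% to 33.7% with a median of 24.6%. Single cells labelled KO ranged from 12.6% to 29.6% with a median of 21.9%. The distributions overlapped over most of their range: 186 of 234 cells labelled KO, 79.5%, lay under the WT median, and 21 lay above the top WT quartile. In 66.5% of all pairs of 1 WT and 1 KO cell, the KO cell had the lower share. In UMIs, the median cell held 13858 from the family under the WT label and 10806 under the KO label. These are shares of the UMIs in the table, so a lower share and a higher level of other transcripts cannot be told apart.

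**Figure D1:**
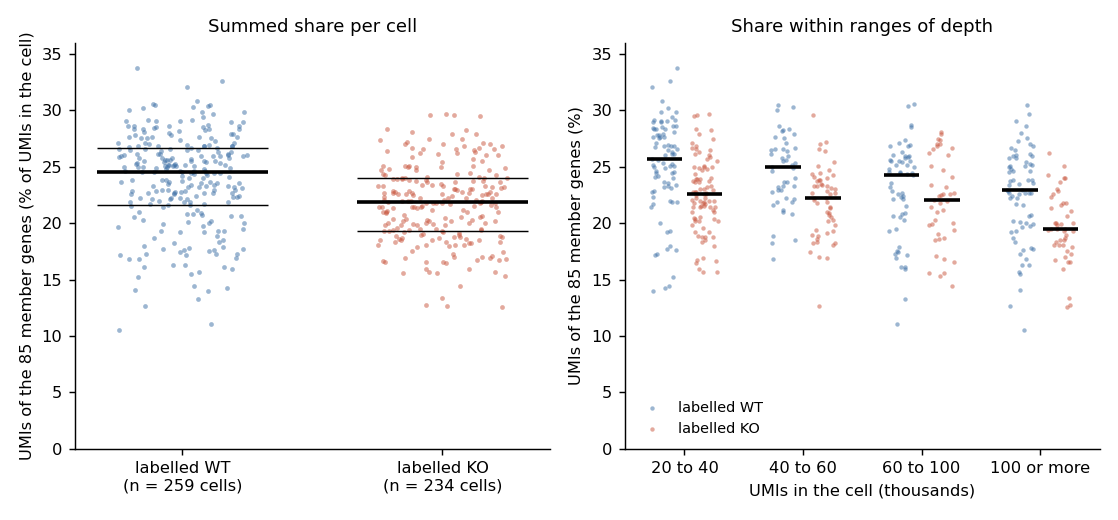
Share of each kept cell's UMIs that came from the 85 member genes, in percent; each point is 1 cell, blue labelled WT and red labelled KO. Left, all kept cells with the median (thick line) and quartiles (thin lines), 24.6% and 21.9% at the medians. Right, the same cells within ranges of UMIs per cell with medians, where the WT median lay above the KO median in each of the 4 ranges.

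Deeper cells had a lower share, and the cells labelled WT were deeper, with medians of 59649 and 50281 UMIs. Spearman's rho between a cell's share and its UMIs was -0.31 over 259 cells labelled WT and -0.29 over 234 labelled KO, as a description of cells that share libraries. Within ranges of depth the order of the pools stayed. In cells of 20000 to 40000 UMIs the median share was 25.7% (WT, 83 cells) and 22.6% (KO, 90 cells). In cells of 40000 to 60000 UMIs it was 24.98% (47 cells) and 22.2% (55 cells). In cells of 60000 to 100000 UMIs it was 24.3% (58 cells) and 22.1% (43 cells). In cells of 100000 UMIs or more it was 23.0% (71 cells) and 19.5% (46 cells). Without the cells with oocyte transcripts the pooled shares were 23.3% and 20.7%. The 70 WT cells with such transcripts had a pooled share of 21.3%, below that of the other WT cells.

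Other measures moved with the share from cell to cell. Malat1, a nuclear noncoding RNA, took a median of 1.46% of a WT cell's and 1.99% of a KO cell's UMIs, and its rho with the share was -0.24 and -0.30. UMIs under Rn45s, the symbol of the ribosomal RNA precursor, had medians of 1.29% and 1.32% and a rho of 0.41 and 0.31. With priming at the poly(A) tail, how far these UMIs follow the amount of the precursor was not tested. The summed level of G2/M genes, with medians of 274 CPM and 123 CPM, had a rho of -0.34 and -0.25. Without the cells with oocyte transcripts the medians were 207 CPM and 123 CPM, and the rho was -0.21 and -0.25. Cells with more G2/M transcripts thus tended to have a lower ribosomal protein share, and the G2/M level was lower in the KO pool. With Malat1 and Rn45s taken out of the total, the shares were 23.4% and 21.5%. The part of Malat1, Rn45s and cell cycle in the difference between the pools was otherwise not tested.

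The lower share was spread over the family. Of the 85 genes, 77 were lower and 8 higher under the KO label, where 48.1% of all 10720 genes were lower and 51.9% higher. Among the 1265 genes outside the family with a mean of at least 10 UMIs per cell, which are closer to the members in level, 51.8% were lower and 48.2% higher. In the 80S list 69 of 73 genes were lower, 28 of 30 of the 40S subunit, 38 of 40 of the 60S subunit and 3 of 3 of the stalk. The median log2 ratio was -0.17 for the 40S genes, -0.13 for the 60S genes and -0.21 for the stalk genes, beside 0.02 over all genes and -0.01 over the abundant genes outside the family. The differences were small: log2 ratios in the 80S list ran from -0.31 to 0.14, and 0 of the 73 genes passed 1.5-fold in either direction, where 15.5% of all genes were at least 1.5-fold lower and 17.2% at least 1.5-fold higher. Among the abundant genes outside the family, 3.64% and 5.69% did so. By the median over cells in place of the pooled level, 70 of 73 genes were lower.

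**Figure D2:**
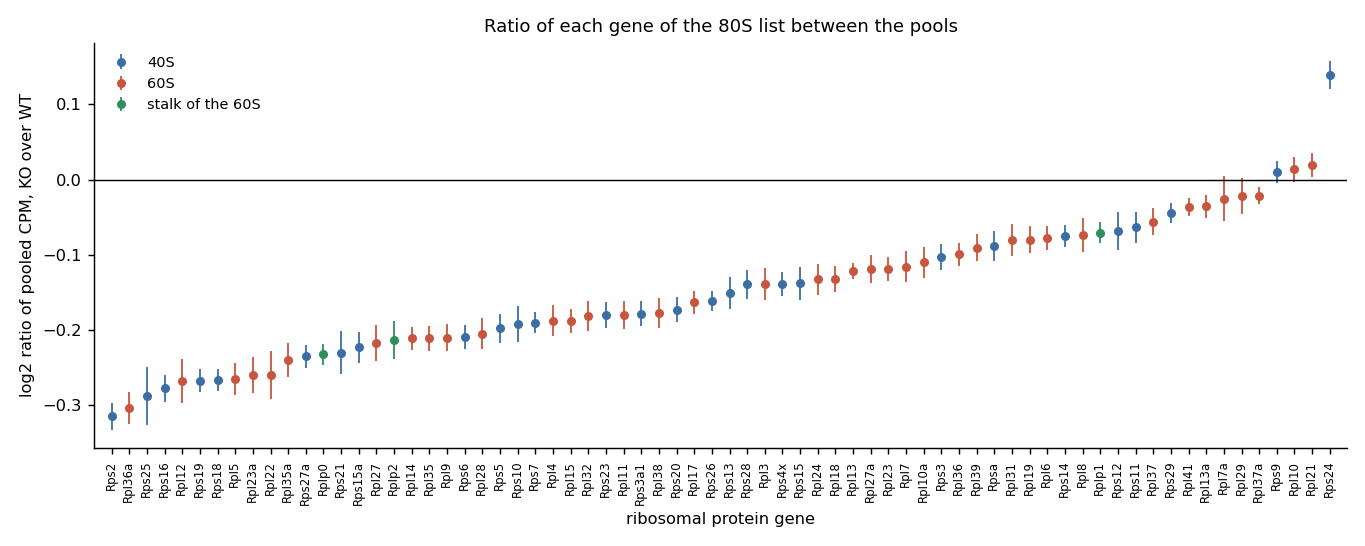
Log2 ratio of pooled CPM, labelled KO over labelled WT, for 70 genes of the 80S list in order of the ratio; bars are exact 95% counting intervals, and colours mark the subunit. The points run from Rps2 at -0.31 to Rps24 at 0.14, and 66 lie below 0.

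The lowest ratios in the 80S list were those of Rps2, Rpl36a, Rps25, Rps16 and Rpl12, which were named after their values were seen. Rps2, a 40S protein near the entry of the mRNA channel, had 701 CPM in the lowest, 3176 in the median and 6507 in the highest cell labelled WT, and 254, 2443 and 5618 CPM in the cells labelled KO. Its pooled level was 3204 CPM in WT and 2576 CPM in KO, a log2 ratio of -0.31 (-0.33 to -0.30). The KO cells were lower at each of these 3 points, with ranges that overlapped widely. Rpl36a was at 2113 CPM in WT and 1711 CPM in KO, and Rps16 at 3052 and 2518 CPM. Rps25, known for its role in initiation at internal ribosome entry sites, stood at 676 and 554 CPM. Rpl12, part of the base of the stalk, stood at 1148 and 953 CPM.

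Rps24 was the exception. Rps24 encodes a 40S protein needed to process the precursor of 18S ribosomal RNA, and stood at 2357 CPM (WT) and 2596 CPM (KO), with 0.14 as its log2 ratio (0.12 to 0.16). Cells labelled WT had 221 CPM at the lowest, 2659 at the median and 9682 at the highest, and cells labelled KO had 299, 2765 and 7419 CPM. The medians lay close together and the ranges overlapped. Rpl21 (0.02), Rpl10 (0.01) and Rps9 (0.01) also had log2 ratios above 0, and all 3 were below 0 without the cells with oocyte transcripts, at -0.01, -0.03 and -0.02, and when the pools were scaled by median-of-ratios, upper quartile or TMM. In these 4 settings Rps24 stayed higher in KO, and in them 72 of the 73 genes were lower. With the deposited normalized values averaged over cells, which shifted the median of all genes by -0.17, Rps24 was at -0.07, or 0.10 relative to that shift.

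The stalk recruits the GTPases of translation, and the mRNAs of its 3 proteins were each lower in KO. Rplp0, which anchors the stalk, was at 4755 CPM in WT and 4048 CPM in KO, a log2 ratio of -0.23 (-0.25 to -0.22). Its acidic partners Rplp2 and Rplp1 had log2 ratios of -0.21 (-0.24 to -0.19) and -0.07 (-0.08 to -0.06). Single cells labelled WT held 1159 to 8698 CPM of Rplp0 with a median of 4787, and cells labelled KO 1126 to 7939 CPM with a median of 4052. Rps6, the target of the S6 kinases downstream of mTOR, was at 3937 and 3406 CPM, a log2 ratio of -0.21 (-0.22 to -0.19).

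Of 19 ribosomal protein genes in which variants cause Diamond-Blackfan anaemia, a failure of red cell production, 17 were in the table. The median log2 ratio of these 17 was -0.19 and 16 were lower in KO, beside a median of -0.14 and 53 of 56 lower in the rest of the 80S list. Rps19, the gene most often affected in patients, was at 4291 and 3565 CPM, a log2 ratio of -0.27. Rpl5 and Rpl11, which with 5S ribosomal RNA bind Mdm2 and so link ribosome assembly to p53, had log2 ratios of -0.26 and -0.18. Rpl35a (-0.24), Rps15a (-0.22), Rpl27 (-0.22), Rpl35 (-0.21), Rps10 (-0.19), Rps7 (-0.19), Rpl15 (-0.19), Rps26 (-0.16), Rps28 (-0.14), Rpl18 (-0.13), Rpl31 (-0.08) and Rps29 (-0.04) were also lower, and Rps24 was higher.

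Levels differed far more between members than between pools. The 3' UMIs count molecules and need no correction for length, and in the 80S list they had quartiles over both pools of 1975 and 3518 CPM and a median of 2648 CPM. Among the most abundant were Rpl13 (7998 and 7351 CPM in WT and KO), Rpl37a (7020 and 6918 CPM), Rpl41 (6452 and 6291 CPM), which encodes the shortest protein of the ribosome, and Rps29 (5368 and 5206 CPM). Single cells held from 2128 to 13795 CPM of Rpl13 in WT and from 3057 to 13954 CPM in KO. At the other end stood Rps25, Rpl22 (956 and 799 CPM), Rpl7a (962 and 945 CPM), Rpl12 and Rps21 (1167 and 995 CPM). The order was alike in the pools, with a rho of 0.99 between WT and KO levels over 73 genes that share libraries and priming. Ribosomal protein genes have many near-identical copies in the genome, and how the authors assigned reads shared with them is not given in the sources used here, so the order of single genes is uncertain.

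At an equal depth of 20000 UMIs per cell, all 73 genes were detected in at least 95% of the cells of both pools. Rpl22 had the lowest detection in WT at 98.8% and Rpl12 the lowest in KO at 98.3%. The summed UMIs of 40S genes were divided by those of 60S genes, stalk genes included. This ratio had a median over cells of 0.664 in WT (0.495 to 0.842) and 0.645 in KO (0.490 to 0.786). The mRNAs of 40S genes were thus slightly lower relative to those of 60S genes in KO, within ranges that overlapped almost fully.

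The start sites of members were read next, because the TOP tract is the sequence these mRNAs are known to share. RefSeq promoters of GRCm38.p6 matched 61 of the 85 members, 54 of them in the 80S list. The tract was searched on the strand of the gene as C at the annotated start followed by 4 bases that are each C or T. It stood at the start of 12 of the 54 genes (22.2%), beside 3.08% of 8482 genes of the table and 3.01% of 27025 genes of the reference. A looser search for C followed by 5 bases each C or T anywhere in the 30 bases around the start found 31 of 54 (57.4%), beside 27.5% of the genes of the table. The 12 genes were Rpl14, Rpl15, Rpl28, Rpl35, Rpl35a, Rpl38, Rplp2, Rps6, Rps10, Rps15a, Rps18 and Rps21. Their median log2 ratio was -0.21 with 12 of 12 lower in KO, and that of the 42 genes without the tract at the annotated start was -0.14 with 39 of 42 lower. Annotated starts can lie some bases away from the true one, and a missing match says only that these letters are not in this window.

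Examples with the tract at the start are shown first, then the genes with the lowest and the highest ratio in the 80S list and the paralogs described below. Each line gives 30 bases of the gene's strand, 15 before the annotated start and 15 from it on, so that base 16 is the start. Capitals mark the longest run of C and T.
Rps6, chr4:86857353-86857382, minus strand: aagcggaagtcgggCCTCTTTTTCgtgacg
Rps18, chr17:33955651-33955680, minus strand: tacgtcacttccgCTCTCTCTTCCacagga
Rpl15, chr14:18270972-18271001, minus strand: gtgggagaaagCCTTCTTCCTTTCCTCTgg
Rpl35, chr2:39005117-39005146, minus strand: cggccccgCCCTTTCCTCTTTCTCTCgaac
Rplp2, chr7:141447636-141447665, plus strand: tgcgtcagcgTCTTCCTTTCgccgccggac
Rps2, chr17:24720048-24720077, plus strand: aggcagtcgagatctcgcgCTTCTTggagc
Rps24, chr14:24490663-24490692, plus strand: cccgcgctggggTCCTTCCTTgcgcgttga
Rpl39l, chr16:10170213-10170242, plus strand: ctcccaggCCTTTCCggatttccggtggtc
Rpl37rt, chr5:115110254-115110283, minus strand: gTCTTCaggccagagcccgcacccagcagt
In Rpl15 and Rpl35 the run spanned 17 and 18 bases and crossed the start. Rps2 and Rps24, at the opposite ends of the ratios, did not meet the search at the annotated start. In Rps24 a run of 9 bases crossed the start without a C at it, and in Rps2 a run of 6 bases began after it.

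The largest differences in the family were those of the 2 paralogs Rpl39l and Rpl37rt. Rpl39l, the paralog of Rpl39 best known from male germ cells, had 410 UMIs in 35 of 259 cells labelled WT and 0 UMIs in 234 cells labelled KO, which allows a share of up to 1.28% of cells with a UMI and sets no limit on cells that express it at a lower level. Taking 3 UMIs, the one-sided 95% limit for a count of 0, as the floor of the KO pool, it was at least 103-fold lower there, and the two-sided exact interval of the ratio reached up to 0.012. With the same floor and without the cells with oocyte transcripts, the log2 ratio was -3.26. Of the 410 UMIs, 382 (93.2%) lay in the 70 WT cells with oocyte transcripts, where it reached 65.7 CPM, against 1.79 CPM in the other WT cells, and 1 cell held 149 of them. Genes with low mean counts had been removed from the table, where the lowest mean was 0.201. Rpl39l is thus in the table mainly through the cells where it was high, and its fold is a description only. Rpl37rt, a retrotransposed copy of Rpl37, had 1490 UMIs in 146 of 259 WT cells and 136 UMIs in 77 of 234 KO cells. Of its WT UMIs, 1322 (88.7%) lay in the same 70 cells. Without cells with oocyte transcripts Rpl37rt was at 10.7 CPM (9.17 to 12.5) in WT and 8.37 CPM (7.02 to 9.91) in KO, a log2 ratio of -0.36 (-0.70 to -0.02). Their parent genes Rpl39 (log2 ratio -0.09) and Rpl37 (-0.06) differed little between the pools.

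**Figure D3:**
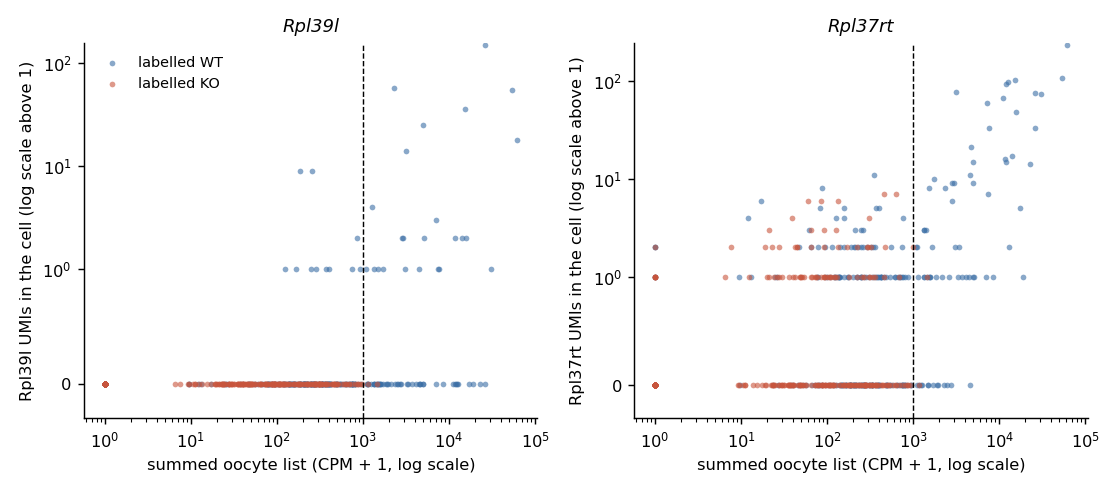
UMIs of Rpl39l (left) and Rpl37rt (right) in each kept cell against the summed CPM of 28 oocyte transcripts in that cell, both on log scales; blue points are labelled WT, red points labelled KO, and the dashed line marks 1000 CPM. Cells with more than 10 UMIs of Rpl39l lie right of the line and are labelled WT.

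The 5 other paralogs were lower in KO as well, and 4 of them also without the cells with oocyte transcripts. Rpl7l1, a paralog of Rpl7 with a role in the assembly of the large subunit, was at 206 CPM in WT and 137 CPM in KO, a log2 ratio of -0.58 (-0.66 to -0.51). In cells without oocyte transcripts it was at 211 and 138 CPM. Rps27l, which p53 induces, had a log2 ratio of -0.33 (-0.36 to -0.29), at 703 and 561 CPM, or 699 and 560 CPM without those cells. Rpl36al (-0.26), Rpl22l1 (-0.17) and Rps4l (-0.17) were closer to the rest of the family. Rpl22l1 and its partner Rpl22 were at like levels, 854 and 757 CPM for Rpl22l1. Rps4l was at 64.1 and 57.0 CPM, and without the cells with oocyte transcripts it was higher in KO, at 52.4 and 57.2 CPM. It was rare, with a UMI at 20000 UMIs in 29.7% of WT and 27.3% of KO cells.

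Of the pseudogene symbols, Rps15a-ps6 was lower in KO (25.1 and 18.1 CPM, log2 ratio -0.47), Rps15a-ps4 higher (73.7 and 84.3 CPM, 0.19) and Rpl14-ps1 level (76.1 and 76.5 CPM). Rps19-ps3 had 44 UMIs in WT and 94 in KO, of which 64 lay in 1 cell, and its ratio turned without that cell. Reads of these copies and of their parent genes may be shared. Rps19bp1 was higher in KO at 103 and 135 CPM, a log2 ratio of 0.39 (0.30 to 0.48), while the median cell held 19.9 CPM in WT and 12.5 CPM in KO and fewer KO cells had a UMI at 20000 UMIs (41.9% against 48.3%).

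How even the family was from cell to cell was then asked. At 20000 UMIs per cell the genes of the 80S list had a median coefficient of variation of 37.3% in WT and 38.3% in KO, beside 67.2% and 64.5% for the 173 and 165 genes outside the family with a mean of at least 10 UMIs, which were lower in level. The variance was a median of 7.52 times the mean in WT and 7.21 times in KO, where pure counting noise would give 1. For the same genes outside the family it was a median of 7.12 and 6.70 times, so by this ratio the family was not more even. In the 80S list the largest ratio was that of Rpl17, a 60S protein that lines the peptide tunnel. Its variance was 37.4 times its mean in WT and 32.9 times in KO. Single cells held from 374 to 19604 CPM of Rpl17 in WT and from 635 to 15071 CPM in KO, around medians of 3683 and 3301 CPM. Rps25 had the smallest ratio in the list, 3.83 and 3.22. The ratio grows with level, and by the coefficient of variation Rpl17 was first in WT (64.7%), ahead of Rpl28 (57.9%), and in KO Rpl12 (66.7%) came before Rpl17 (64.7%). Rps4x (19.97 and 15.4), Rpl37a (18.9 and 23.3) and Rpl28 (17.4 and 18.2) also had high ratios in both pools. Some of them varied together: Rpl17 had its highest correlation with Rpl37a (Pearson's r of 0.56 in WT and 0.48 in KO), then with Rps4x (0.46 and 0.40) and Rpl28 (0.40 and 0.42).

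**Figure D4:**
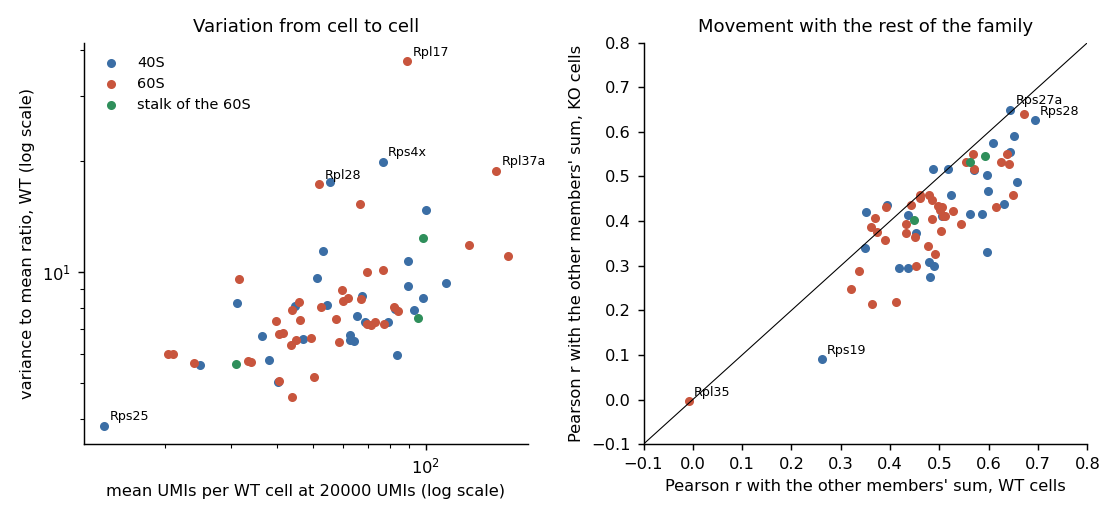
Left, variance to mean ratio against mean UMIs per cell labelled WT at 20000 UMIs, both on log scales, for 70 genes of the 80S list. Right, Pearson's r over cells between each of these genes and the summed UMIs of the other members, WT on the x axis and KO on the y axis with the line of equality; Rpl17 stands highest on the left, and Rpl35 lies near 0 in both pools on the right.

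Most members varied together. Of 2628 pairs of genes in the 80S list, 98.1% had a correlation above 0 in WT and 96.0% in KO, with medians of 0.26 and 0.19. The same share was not computed for pairs of genes outside the family, so whether it is particular to these genes cannot be said. Against the summed UMIs of the other members, the median r was 0.49 in WT and 0.42 in KO, highest for Rps28 in WT (0.69) and Rps27a in KO (0.65). Rpl35 was the exception, with r of -0.01 in WT and 0.00 in KO at a mean of 67.2 and 59.1 UMIs, which is no low count. Its highest partner was Rps19 (0.27 and 0.24), which itself had low values against the sum (0.26 and 0.09). These correlations describe cells that share libraries and a fixed total, and carry no test.

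Outside the family, the genes most like its sum were sought among the 3027 genes that averaged 1 UMI or more per thinned cell. The 10 highest, by the mean of r in both pools, included the elongation factor Eef1a1 (0.67 in WT and 0.47 in KO), Tpt1 (0.47 and 0.45), Fau (0.42 and 0.48), Rn45s (0.47 and 0.36), Eef1b2 (0.34 and 0.42), the initiation factor Eif3f (0.41 and 0.31), Rack1 (0.45 and 0.22), Actb (0.37 and 0.30) and Pabpc1 (0.46 and 0.18). Fau and Rack1 encode ribosomal proteins under symbols that the rule did not take. Spearman's rho gave the same 10 genes, and 9 of the 10 stayed without the cells with oocyte transcripts. At the other end stood Ubb (-0.54 and -0.37), which encodes ubiquitin, the histone gene H3f3b (-0.48 and -0.30) and Birc5 (-0.42 and -0.32), a gene of mitosis.

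Fau and Rack1 differed in direction: Rack1 had a log2 ratio of -0.22 (-0.25 to -0.19) and Fau one of 0.10 (0.08 to 0.11). Other genes of ribosome production and translation were then counted by list. Of 63 genes of ribosome biogenesis, 50 were lower and 13 higher in KO with a median log2 ratio of -0.35. The genes named from each list here were taken among those averaging 0.5 UMI per cell or more. In this list the lowest were Utp20 (-0.92), Wdr75 (-0.90) and Bysl (-0.78), which process the small subunit's RNA. The highest were Rrp9 (0.79), Heatr1 (0.24) and Ddx18 (0.10). Of the 385 WT UMIs of Utp20, 161 lay in 1 cell, more than the 153 in all KO cells. For Rrp9, 1 cell held 306 UMIs, beside totals of 761 in WT and 990 in KO. The mitochondrial ribosome, a separate machine, had 59 of 78 genes lower with a median of -0.21, from Mrps22 (-0.97), Mrps31 (-0.85) and Mrpl9 (-0.85) to Mrpl33 (0.44), Mrps11 (0.41) and Mrpl52 (0.40). Without the cells with oocyte transcripts Mrpl9 was at -0.31, Mrps22 at -0.86 and Mrps31 at -0.69, and the median of this list was -0.19. The biogenesis and mitochondrial medians were nearer to 0 as means over cells of log2(CPM/100 + 1), at -0.10 and -0.07, a scale that damps genes of low level.

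**Figure D5:**
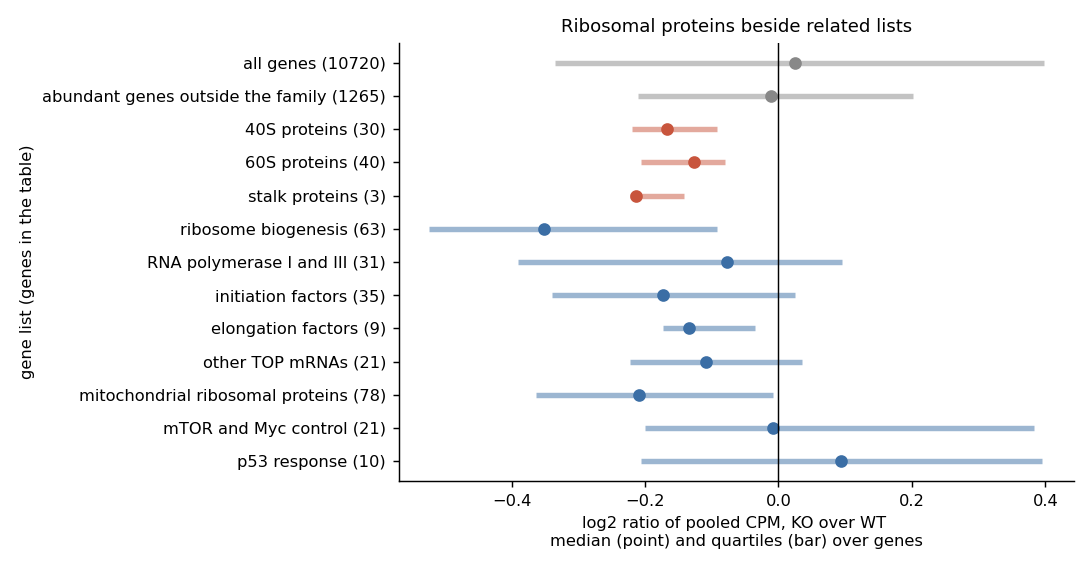
Median (point) and quartiles (bar) of the log2 ratio of pooled CPM, labelled KO over labelled WT, over the genes of each list, with the number of genes in the table in parentheses; red marks the subunits of the cytosolic ribosome, blue related lists, grey the background. The cytosolic subunits have short bars left of 0, and ribosome biogenesis has the lowest median at -0.35.

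Among initiation factors 24 of 35 were lower, with a median of -0.17, from Eif2b3 (-1.33), Eif2b1 (-0.66) and Eif5 (-0.62) to Eif4g3 (1.04), Eif4g2 (0.64) and Eif2b2 (0.59). For Eif2b3, 1 cell held 296 UMIs, beside totals of 995 in WT and 298 in KO. Among elongation and release factors 7 of 9 were lower, with a median of -0.13, led by Eef1e1 (-0.21), Eef1b2 (-0.18) and Gspt1 (-0.17). In cells of 20000 to 60000 UMIs this median was 0.06. Eef2 and its kinase Eef2k stood apart, both at 0.34, and Etf1 was at -0.03. Without the cells with oocyte transcripts 7 of 9 were lower as well, in another order. Etf1 was then at -0.27, Gspt1 at -0.26, Eef1b2 at -0.21 and Eef1e1 at -0.20. Other TOP mRNAs had 14 of 21 lower with a median of -0.11, with Hnrnpa1 (-0.50), Cct4 (-0.46) and Npm1 (-0.39) at the low end and Vim (0.53), Eef2 and Fau at the high end. Npm1 is also a biogenesis gene. Subunits and factors of RNA polymerases I and III had 19 of 31 lower with a median of -0.08, from Polr3f (-1.89), Gtf3c1 (-1.18) and Polr3g (-0.59) to Gtf3c3 (1.01), Taf1b (0.53) and Maf1 (0.30), the repressor of polymerase III. This median was 0.02 in cells of 20000 to 60000 UMIs and 0.03 when the top cell of each gene was left out.

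The known controls of ribosome production did not share 1 direction, with 11 of 21 lower and a median of -0.01. Myc, which drives ribosomal genes, was at 113 CPM in WT and 43.9 CPM in KO, a log2 ratio of -1.37 (-1.49 to -1.25). Mlst8, a subunit of the mTOR complexes, was at -0.78 and Larp4 at -0.36, while Mtor itself was at 0.98 (8.57 and 16.9 CPM), Rps6ka3 at 0.92 and Tsc2, which restrains mTOR, at 2.18 with 91 and 310 UMIs. Larp1, which binds TOP tracts, was at -0.26. The p53 response that disturbed ribosome assembly can start had 5 of 10 genes lower and a median of 0.09, from Phlda3 (-1.50), Mdm4 (-0.45) and Ccng1 (-0.24) to Bbc3 (0.81), Cdkn1a (0.73) and Sesn2 (0.43). Without the cells with oocyte transcripts, which held 65.9% of the WT UMIs of Mdm4, 64.6% of those of Phlda3 and 69.0% of those of Cdkn1a, 4 of 10 were lower and the median was 0.32. Mdm4 was then higher in KO, at 77.0 and 120 CPM (0.64), Cdkn1a was at 1.97 and Phlda3 at -0.45. Several of these genes had few UMIs, 61 for Phlda3 in KO and 91 for Tsc2 in WT. For Mtor, 1 cell held 87 UMIs, beside totals of 184 in WT and 274 in KO. For Tsc2, 1 cell held 69 UMIs.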

How the data were processed

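The values deposited by the authors are log2 of a normalized UMI count plus 1, for 10720 genes in 586 cells. Per the study's methods and the labels' processing notes, reads were aligned to a transcriptome of mm9 and duplicates removed by UMI, cells were filtered on mapping, genes and transcripts, and genes with low mean counts removed; aligner and normalization method are not given in the sources used here. After undoing the log2, each cell's values divided by its smallest non-zero value were whole (100% within 0.01 of a count), which gave the UMIs. Kept cells (2000 genes, 20000 UMIs) were summed per genotype label and scaled to CPM; log2 ratios have Clopper-Pearson intervals, with pooled counts under 3 raised to 3. Variation, detection and correlations used cells thinned to 20000 UMIs. Intervals and thinning were tested on simulated Poisson counts, which lack the variation between cells and libraries of these data. The test thus bears on counting error only. Python 3.11.15, numpy 2.4.6, pandas 2.3.3 and scipy 1.17.1 were used. Members and lists were chosen with earlier results of these data known. Named genes were the 5 highest and lowest levels and ratios (members with a mean of at least 0.5 UMI), stalk, paralog and Diamond-Blackfan genes, Rps6, the 3 largest ratios each way in related lists, the 10 most similar genes and Med23; some of these are not reported here, and others were chosen after their values were seen. Marker lists of other cells summed, in WT and KO, to 1510 and 1184 CPM (5 of 14 erythroid genes in the table), 106 and 279 CPM (3 of 10 neutrophil), 55.4 and 86.3 CPM (1 of 13 lymphoid), 81.8 and 102 CPM (6 of 9 stroma and endothelium) and 2834 and 145 CPM (28 of 30 oocyte). Doublets were not called in these hand-picked cells. Alternatives were other cell sets, scalings and denominators.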

Additional observations from a re-analysis of the deposited data

How the results depend on the processing

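No paired analysis was possible because single libraries cannot be told apart in the table, and none could be left out. The lower summed share under the KO label kept its direction in each alternative run. Its log2 ratio was -0.15 under the stricter limits (3000 genes, 30000 UMIs), -0.13 with cells thinned to 20000 UMIs, -0.17 without cells with oocyte transcripts, -0.16 in cells of 20000 to 60000 UMIs, -0.13 with the deposited normalized values averaged over cells and -0.13 without Malat1 and Rn45s in the total, a choice made after seeing the data, beside -0.14. The number of members lower in KO ran from 75 to 83, and from 67 to 73 in the 80S list.

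The median log2 ratio of all members, -0.16, was -0.19 under median-of-ratios, -0.19 under upper-quartile and -0.19 under TMM scaling and -0.20 with the members taken out of the total. That of the 80S list, -0.14, was -0.18 without cells with oocyte transcripts. With the deposited normalized values averaged over cells the medians were -0.31 for all members, -0.31 for the 80S list, -0.53 for biogenesis, -0.35 for initiation, -0.33 for elongation, -0.28 for other TOP mRNAs and -0.39 for mitochondrial ribosomal proteins; that setting shifted all genes by -0.17, and relative to this shift the members were at -0.15. Elongation was at -0.19 without cells with oocyte transcripts and 0.06 in cells of 20000 to 60000 UMIs. The polymerase I and III median turned in 2 of 13 settings (up to 0.03), the control list near 0 in 6 (-0.14 to 0.07) and the p53 list in 1 (-0.0023 to 0.32). As means over cells of log2(CPM/100 + 1), biogenesis was at -0.10 and mitochondrial ribosomal proteins at -0.070.

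Directions turned in 10 of the genes followed. Rps9 turned in 9 of 13 settings (-0.16 to 0.02), Rpl10 in 8 (-0.14 to 0.02) and Med23 in 4 (-0.40 to 0.56). Rpl21 was at -0.0070 without cells with oocyte transcripts, -0.0084, -0.0075 and -0.0098 under median-of-ratios, upper-quartile and TMM scaling, -0.019 without members in the total and -0.14 with the normalized values. Rpl37a was at 0.015 thinned, 0.0076 without its top cell and 0.016 as the mean of logs, and Rpl41 at 0.0016 without its top cell. Rps24 was at -0.069 and Rps19bp1 at -0.0015 with the normalized values. Rps19-ps3 was at -0.16 in cells of 20000 to 60000 UMIs and -0.14 without its top cell, and Rn45s at 0.0080 in cells of 20000 to 60000 UMIs. At 40000 UMIs the median variance to mean ratio was 14.2 in WT and 13.9 in KO, as it grows with depth. The cause of these moves was not tested. With 1 pool per label, no depth makes up for the missing replicates.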
